A study of Danio rerio with 14 samples.

Results

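At 70% epiboly, 8 hours post fertilization (hpf), wild-type zebrafish embryos were compared with bmp7 mutant embryos across all genes. The comparison uses 4 of the 14 libraries of the series, chosen by the genotype and stage in the headings of the count table, without use of any measured value. RNA was sequenced from whole embryos, 40 per library, with a stranded kit for polyadenylated RNA. The other 10 libraries are 4 of untreated embryos of both genotypes at 6 hpf, the shield stage, and 6 of bmp7 mutants treated with the translation inhibitor cycloheximide (CHX), 3 of them also injected with BMP2/7 protein.

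The 2 mutant libraries at 8 hpf are labelled bmp7-/- and were headed Aub-/- in the count table, after the sb1aub allele of bmp7a. The 2 control libraries are labelled wild-type, but were headed Aub-/+, so the embryos may be heterozygous. They are called wild-type here. Both groups were untreated. Mutant embryos came from homozygous mutant adults, so genotype cannot be told apart from the parents or the line at any gene below. The labels do not say that replicates came from separate crosses, and p-values measure only the spread between these libraries, which may be technical. In whole embryos, fewer cells of a type and less RNA per cell cannot be told apart.

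Bone Morphogenetic Proteins (BMPs) are secreted ligands of the TGFβ superfamily that bind receptor kinases, which phosphorylate Smad1, Smad5 and Smad9. In the zebrafish gastrula, heterodimers of Bmp2b and Bmp7a form a gradient that is highest ventrally, where it specifies epidermis, ventral mesoderm and tail, and is blocked dorsally by antagonists such as Chordin. Without bmp7a, embryos are dorsalized.

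The table gave 16093361 and 16142613 counts in the wild-type libraries and 5034277 and 19326577 in the mutant libraries, so mutant replicate 1 was the shallowest by far and carries the largest counting error. Levels below are in CPM, which relate a gene's counts to the total counts of its library, scaled by the TMM factors. Across genes, log2 CPM correlated at 0.966 between both wild-type and 0.973 between both mutant libraries, and at 0.930 to 0.944 between genotypes, where genes are not independent replicates. The mutated gene itself, bmp7a, stood at 35.4 and 38.4 CPM in the wild-type and 0.777 and 0.413 CPM in the mutant libraries. Its level was thus 71.0-fold higher in wild-type (log2 fold change 6.15, SE 0.41, adjusted p = 0.000209), in the direction of the labels, and the genotypes did not overlap.

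Of 10029 genes tested with the edgeR quasi-likelihood test at a Benjamini-Hochberg adjusted p under 0.05, 203 were higher in wild-type (2.02% of all genes tested) and the rest of 316 called genes (3.15%) were lower (1.13%). All adjusted p-values below are from this test, and each log2 fold change is that of wild-type against mutant. The median log2 fold change over all genes was 0.02, and 2337 genes had an unadjusted p under 0.05. In all 316 called genes the libraries of one genotype lay above those of the other, but so they did in 57.6% of all genes tested (30.1% with wild-type above, 27.5% with mutant above). The genes higher in wild-type differed by a median log2 fold change of 2.39 (0.84 to 10.10), and 19 of them had 0 counts in both mutant libraries. Those lower in wild-type differed by a median of -1.63. Genes of the lists below made up 41 of the genes higher and 14 of those lower in wild-type, while 162 and 99 were in none. Counts of called members of each list below are to be read beside the shares of all genes given here.

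**Figure D1:**
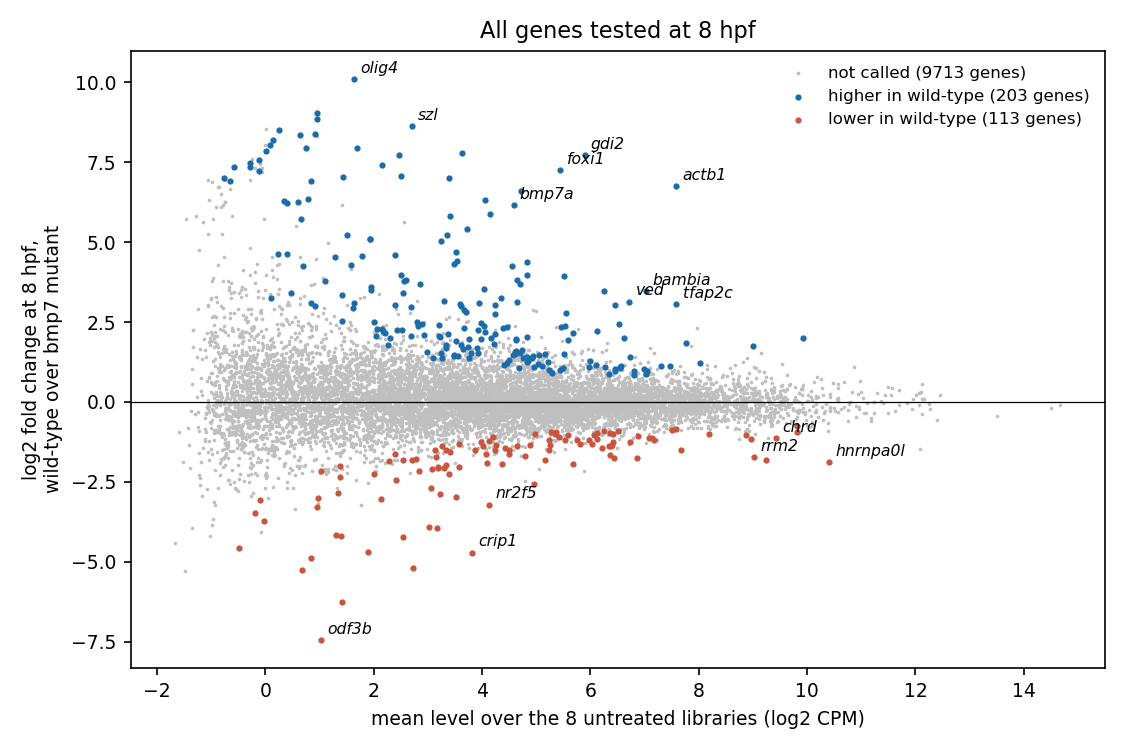
Each point is 1 gene tested at 8 hpf, with its mean level over the 8 untreated libraries (log2 CPM) on the horizontal and its log2 fold change of wild-type over bmp7 mutant on the vertical axis. The 203 genes called higher in wild-type reach a fitted log2 fold change of 10.10 at olig4, and those called lower reach -7.43 at odf3b, both with 0 counts in 1 genotype, while 9713 genes were not called.

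The calls were sensitive to the number of libraries. Left out in turn, wild-type replicate 1 reduced them to 86 higher and 31 lower, wild-type replicate 2 to 87 and 24, mutant replicate 1 to 40 and 9, and mutant replicate 2 to 30 and 14. Of the genes called higher and lower, 27 and 6 passed in all 4 of these fits. Leaving out wild-type 6 hpf replicate 1, which shares the estimate of the spread, gave 292 and 173. For genes described in the text, the 8 hpf libraries whose removal ended a call are given with each group. Such a fit leaves 1 library of that genotype at 8 hpf. A lost call can thus come from the smaller number of libraries and does not show that the gene depended on the library removed. Across these fits the log2 fold change of id3 ranged from 0.91 to 1.03 and that of myf5 from -1.49 to -1.26. That of col15a1b moved more, from -3.48 to -1.90. Leaving out a mutant 6 hpf library also ended calls. Without either replicate those of bmp1a, bmpr1ba, chrna4b, col15a1b, fam212ab, fgfr1a and neu4 were lost, without replicate 1 that of znf692 and without replicate 2 that of tdgf1 (adjusted p = 0.0511 to 0.0649).

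Of 5 BMP ligand genes tested, bmp7a and bmp4 were higher in wild-type and none was lower (median log2 fold change 0.83). bmp4, which encodes a ligand of ventral tissue and the tailbud, was at 39.9 and 27.0 CPM in the wild-type and 2.52 and 3.10 CPM in the mutant libraries. Both wild-type libraries lay above both mutant libraries. The remaining ligand genes did not pass: admp, which encodes a ligand of the dorsal side, was at 44.6 and 98.1 CPM in the wild-type and 77.3 and 84.2 CPM in the mutant libraries and overlapped between genotypes (adjusted p = 0.844), and bmp16 (adjusted p = 0.531) and gdf6a (adjusted p = 0.604) had few reads. The gene for the partner of Bmp7a, bmp2b, was in the count table but had too few reads for a test. The calls of bmp7a and bmp4 held with each of the 4 libraries left out.

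Outside the cell, 3 of 11 regulators of BMP ligands were higher in wild-type and 1 was lower (median 0.93). twsg1b encodes a Twisted gastrulation protein, which binds BMP and Chordin, and was at 31.6 and 25.2 CPM in the wild-type and 8.15 and 11.6 CPM in the mutant libraries (log2 fold change 1.503, SE 0.31, adjusted p = 0.0381). The gene bmp1a encodes a Tolloid-type protease that cleaves Chordin, and was at 25.6 and 26.5 CPM in the wild-type and 13.2 and 12.03 CPM in the mutant libraries (log2 fold change 1.05, SE 0.22, adjusted p = 0.0381). szl, which encodes Sizzled, an inhibitor of these proteases, was at 26.03 and 11.9 CPM in the wild-type and 0 and 0.0516 CPM in the mutant libraries. All 3 showed no overlap of the genotypes. chrd, which encodes Chordin itself, was at 499 and 620.0 CPM in wild-type and 1307 and 1148 CPM in mutant libraries, so the ligand antagonist stood higher in mutants (log2 fold change -1.13, SE 0.24, adjusted p = 0.0433). Without any 1 of the 4 libraries, the calls of twsg1b, bmp1a and chrd were lost (adjusted p = 0.067 to 0.25). Without mutant replicate 2, the call of szl was lost (adjusted p = 0.0528). The call of chrd was also lost with library size alone in place of TMM. Among the 7 regulators that did not pass, bmper, which encodes a BMP-binding protein, was at 27.8 and 26.2 CPM in the wild-type and 17.3 and 17.5 CPM in the mutant libraries (adjusted p = 0.115), and the antagonist gene nog1 was at 49.9 and 53.2 CPM in the wild-type and 69.1 and 57.5 CPM in the mutant libraries (adjusted p = 0.399).

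Receptors and Smads carry the signal into the nucleus. Of 12 genes for receptors and Smads none was higher in wild-type and 1 was lower (median 0.47). bmpr1ba, which encodes a type I BMP receptor, was at 10.1 and 9.72 CPM in the wild-type and 21.9 and 27.1 CPM in the mutant libraries. It did not overlap between genotypes (log2 fold change -1.31, SE 0.29, adjusted p = 0.0491), but its call was lost without any 1 of the 4 libraries and with library size alone. smad5, the main BMP-responsive Smad gene of the gastrula, was at 163 and 109 CPM in the wild-type and 98.8 and 92.5 CPM in the mutant libraries and did not pass (adjusted p = 0.291). The type I receptor gene acvr1l was at 296 and 248 CPM in the wild-type and 235 and 219 CPM in the mutant libraries and did not pass either (adjusted p = 0.469). The adjusted p of bmpr1ba without a library was at least 0.128.

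Among 10 genes for inhibitors inside the responding cell, bambia was higher in wild-type and none was lower (median 1.02). bambia encodes a pseudoreceptor that limits BMP signaling and is itself induced by it. It stood at 237 and 238 CPM in the wild-type and 20.4 and 22.6 CPM in the mutant libraries, a 10.98-fold difference with near identical replicates. Several others lay just outside the threshold, with both wild-type libraries above both mutant libraries. The inhibitory Smad gene smad7 was at 17.5 and 21.7 CPM in the wild-type and 7.18 and 7.33 CPM in the mutant libraries (adjusted p = 0.0579). smad6a, also an inhibitory Smad gene, was at 4.78 and 3.02 CPM in the wild-type and 0.582 and 1.03 CPM in the mutant libraries (adjusted p = 0.0597), and skilb, which encodes a Ski-type corepressor, was at 27.2 and 18.8 CPM in the wild-type and 9.90 and 10.8 CPM in the mutant libraries (adjusted p = 0.0579). bambia passed with each of the 4 libraries left out.

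Id proteins bind bHLH transcription factors and block them from DNA, and their genes are classic BMP targets. Of 5 Id genes, id3 and id4 were higher in wild-type (median 0.97), and all 5 had both wild-type libraries above both mutant libraries, where 30.1% of all genes do. id3 was at 166 and 154 CPM in the wild-type and 82.1 and 81.9 CPM in the mutant libraries, a 1.95-fold difference (log2 fold change 0.97, SE 0.18, adjusted p = 0.0271). id4 was far lower in mutants, at 7.26 and 10.1 CPM in the wild-type and 0.971 and 0.361 CPM in the mutant libraries. id2a, at 62.4 and 58.8 CPM in the wild-type and 30.3 and 30.4 CPM in the mutant libraries, did not pass (adjusted p = 0.067), nor did id1, at 654 and 1007 CPM in the wild-type and 512 and 585 CPM in the mutant libraries (adjusted p = 0.268). The call of id3 was lost without any 1 of the 4 libraries (adjusted p = 0.067 to 0.191). The call of id4 was lost without mutant replicate 2 (adjusted p = 0.148). With all 14 libraries in the fit, id3 did not pass (adjusted p = 0.0725).

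The homeodomain repressors vox, vent and ved keep dorsal genes off ventrally. ved and vox were higher in wild-type and vent did not pass (median 2.53). vox stood at 208 and 250.1 CPM in the wild-type and 109 and 100.1 CPM in the mutant libraries, a 2.19-fold difference (log2 fold change 1.13, SE 0.17, adjusted p = 0.0132). ved was at 205 and 171 CPM in the wild-type and 22.1 and 20.8 CPM in the mutant libraries. vent was at 21.6 and 13.5 CPM in the wild-type and 2.72 and 3.25 CPM in the mutant libraries. Its genotypes did not overlap, but it did not pass (SE 0.82, adjusted p = 0.115). Without wild-type replicate 2, mutant replicate 1 and mutant replicate 2, each in turn, the call of vox was lost (adjusted p = 0.0643 to 0.16). The call of ved held with each of the 4 libraries left out.

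Of 8 homeobox genes tested from the Msx and Dlx families, regulators of epidermis and placodes, 3 were higher in wild-type. msx3 was at 38.6 and 34.6 CPM in the wild-type and 3.88 and 4.596 CPM in the mutant libraries (log2 fold change 3.09, SE 0.33, adjusted p = 0.00204). msx1a was at 18.8 and 27.8 CPM in the wild-type and 4.47 and 6.66 CPM in the mutant libraries (log2 fold change 2.03, SE 0.45, adjusted p = 0.047). dlx3b, a gene of epidermis and placodes, was at 140.3 and 120.8 CPM in the wild-type and 21.9 and 27.9 CPM in the mutant libraries (log2 fold change 2.38, SE 0.44, adjusted p = 0.0275). In each of these the genotypes were apart. msx1b was at 114.1 and 175 CPM in the wild-type and 106 and 101 CPM in the mutant libraries and did not pass (adjusted p = 0.487). dlx2a, of the same family as dlx3b, was at 3.01 and 1.96 CPM in the wild-type and 0.388 and 0.413 CPM in the mutant libraries (adjusted p = 0.0929). msx1a and dlx3b did not pass without any 1 of the 4 libraries (adjusted p = 0.0643 to 0.278). msx3 passed with each of the 4 libraries left out.

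Transcription factors of the non-neural ectoderm set apart the future epidermis. Of 14 tested, 5 were higher in wild-type, none was lower, 12 had both wild-type libraries on top and the median was 1.53. Over all genes tested, 30.1% have both wild-type libraries on top. foxi1, a forkhead gene of ventral ectoderm, was at 111 and 127 CPM in the wild-type and 0.777 and 0.775 CPM in the mutant libraries. Its 152-fold difference (log2 fold change 7.25, SE 0.55, adjusted p = 0.000367) left both mutant libraries below 1 CPM. tfap2c, an AP-2 gene, was at 332 and 361 CPM in the wild-type and 48.0 and 36.3 CPM in the mutant libraries (log2 fold change 3.05, SE 0.24, adjusted p = 0.000416). The related tfap2a was at 397 and 386 CPM in the wild-type and 180.0 and 159 CPM in the mutant libraries (log2 fold change 1.21, SE 0.17, adjusted p = 0.00807), a 2.31-fold difference beside 8.27-fold for tfap2c, and the difference between these genes was not tested. klf2b, a Krüppel-like factor gene, was at 334 and 466 CPM in the wild-type and 119.6 and 101 CPM in the mutant libraries (log2 fold change 1.86, SE 0.21, adjusted p = 0.00227). gata2a, a GATA factor gene active in ventral ectoderm, was at 173 and 181 CPM in the wild-type and 49.1 and 39.8 CPM in the mutant libraries (log2 fold change 1.998, SE 0.27, adjusted p = 0.0077).

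Other epidermal regulators did not pass. tp63, which encodes the p63 regulator of epidermal stem cells, was at 4.96 and 5.45 CPM in the wild-type and 1.55 and 0.310 CPM in the mutant libraries (adjusted p = 0.0865). gata3 overlapped between genotypes, at 102 and 146 CPM in the wild-type and 106.6 and 86.8 CPM in the mutant libraries (adjusted p = 0.349). klf17, a gene of the hatching gland, was at 89.2 and 115.5 CPM in the wild-type and 75.5 and 76.2 CPM in the mutant libraries (adjusted p = 0.196). Outside this list, tbx3a, a T-box gene, was at 26.1 and 10.3 CPM in the wild-type and 1.16 and 1.55 CPM in the mutant libraries (log2 fold change 3.68, SE 0.59, adjusted p = 0.0159), higher in both wild-type libraries although these differed from each other by more than 2-fold. The call of tbx3a was lost without wild-type replicate 1, mutant replicate 1 and mutant replicate 2, each in turn (adjusted p = 0.0543 to 0.156). The calls of tfap2a and gata2a were lost without mutant replicate 1 and mutant replicate 2, each in turn (adjusted p = 0.0697 to 0.128). The call of klf2b was lost without mutant replicate 2 (adjusted p = 0.0551). The calls of foxi1 and tfap2c held with each of the 4 libraries left out.

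**Figure D2:**
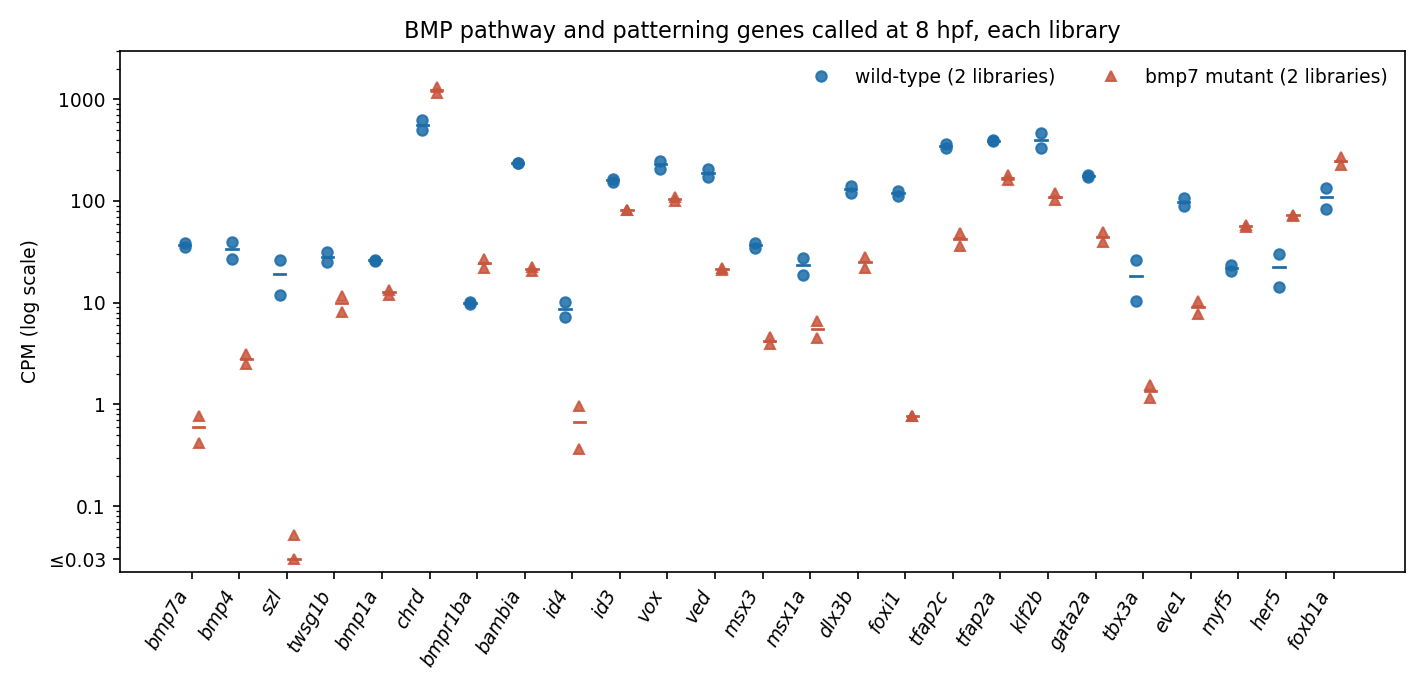
Levels (CPM, log scale) of BMP pathway and patterning genes called at 8 hpf, with 1 point per library, circles for the 2 wild-type and triangles for the 2 bmp7 mutant libraries, and a bar at each mean. foxi1 lies above 100 CPM in wild-type and below 1 CPM in mutants, while chrd, bmpr1ba, myf5, her5 and foxb1a lie higher in mutants.

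eve1, an even-skipped homeobox gene of the ventral margin, was at 89.7 and 108 CPM in the wild-type and 10.5 and 7.80 CPM in the mutant libraries (log2 fold change 3.47, SE 0.30, adjusted p = 0.000553). The caudal genes, which specify posterior tissue, did not pass: cdx1a was at 224 and 167 CPM in the wild-type and 48.3 and 60.1 CPM in the mutant libraries (adjusted p = 0.0665) and cdx4 at 784 and 823 CPM in the wild-type and 614 and 653 CPM in the mutant libraries (adjusted p = 0.305). None of 19 Hox genes tested was called in either direction, with a median of -0.09, and hoxc8a, for example, overlapped at 42.4 and 25.5 CPM in the wild-type and 22.5 and 37.5 CPM in the mutant libraries. eve1 passed with each of the 4 libraries left out.

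In the mesoderm, 1 of 9 genes of ventral and lateral mesoderm and blood was higher in wild-type (median 2.12). drl, a zinc finger gene of lateral mesoderm, had 153 counts over both wild-type and 3 over both mutant libraries, a ratio of 37.0 (95% counting interval 12.4 to 181). The gene zgc:136538 had counts that differ from these by under 5% in each library, so the reads cannot be assigned to either. npas4l, a master gene of endothelium and blood, was at 15.4 and 5.93 CPM in the wild-type and 3.30 and 1.14 CPM in the mutant libraries and did not pass (adjusted p = 0.0793). nkx2.7, a gene of the heart field, was at 2.60 and 2.90 CPM in the wild-type and 0.582 and 0.413 CPM in the mutant libraries (adjusted p = 0.0864). Without wild-type replicate 1, mutant replicate 1 and mutant replicate 2, each in turn, the call of drl was lost (adjusted p = 0.114 to 0.261).

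Of 18 genes of the tailbud and paraxial mesoderm none was higher in wild-type and 1 was lower (median -0.30). myf5, a bHLH gene of muscle precursors, was at 23.7 and 20.3 CPM in the wild-type and 55.5 and 58.5 CPM in the mutant libraries, so mutants held 2.59-fold more (log2 fold change -1.37, SE 0.23, adjusted p = 0.0166). tbx6, at 104 and 114.1 CPM in the wild-type and 203 and 245 CPM in the mutant libraries, and ripply1, at 52.0 and 72.0 CPM in the wild-type and 132.6 and 120.5 CPM in the mutant libraries, also lay higher in both mutant libraries without passing (adjusted p = 0.101 and 0.066). The Brachyury gene ta was at 266 and 357 CPM in the wild-type and 200.4 and 224 CPM in the mutant libraries (adjusted p = 0.223), and the ventrolateral ligand gene wnt8a at 294 and 512 CPM in the wild-type and 830.4 and 608 CPM in the mutant libraries (adjusted p = 0.247). The call of myf5 was lost without any 1 of the 4 libraries (adjusted p = 0.0625 to 0.16).

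None of 15 genes of the neural plate border, neural crest and placodes was called (median -0.31). twist1a was at 14.99 and 18.8 CPM in the wild-type and 55.5 and 48.7 CPM in the mutant libraries (adjusted p = 0.113), and foxd3, an early crest gene, overlapped at 23.1 and 32.9 CPM in the wild-type and 39.99 and 32.9 CPM in the mutant libraries (adjusted p = 0.388).

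Of 12 genes of the organizer and axial mesoderm, chrd was lower and shha higher in wild-type (median -0.35). The notochord genes noto, at 76.6 and 112.4 CPM in the wild-type and 93.2 and 89.3 CPM in the mutant libraries, and foxa3, at 189 and 168 CPM in the wild-type and 181 and 165 CPM in the mutant libraries, overlapped between genotypes (adjusted p = 0.918 and 0.909). ism1, which encodes Isthmin, was at 83.9 and 116.7 CPM in the wild-type and 174 and 173 CPM in the mutant libraries and lay just outside the threshold (adjusted p = 0.0648). shha, which encodes Sonic hedgehog, had 130 counts over both wild-type and 1 over both mutant libraries, a ratio of 94.2 (95% counting interval 16.6 to 3751). This was opposite to the direction of the related shhb, at 15.9 and 19.1 CPM in the wild-type and 30.3 and 32.5 CPM in the mutant libraries (adjusted p = 0.169). Without any 1 of the 4 libraries, the call of chrd was lost (adjusted p = 0.0916 to 0.239). Without wild-type replicate 2, mutant replicate 1 and mutant replicate 2, each in turn, the call of shha was lost (adjusted p = 0.0506 to 0.16).

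Of 21 genes of the neural ectoderm 2 were lower and 1 was higher in wild-type (median -0.76), and both mutant libraries were on top in 15, where 27.5% of all genes have this order. her5, a repressor gene of the midbrain and hindbrain border, was at 14.3 and 30.2 CPM in the wild-type and 71.4 and 73.5 CPM in the mutant libraries (log2 fold change -1.70, SE 0.34, adjusted p = 0.0353). foxb1a, a forkhead gene of the neural plate, was at 83.8 and 133.5 CPM in the wild-type and 269 and 228 CPM in the mutant libraries (log2 fold change -1.19, SE 0.27, adjusted p = 0.0494), and its call was also lost with library size alone. sox19a, a SoxB1 gene of early neural ectoderm, was at 224 and 319.8 CPM in the wild-type and 499 and 461 CPM in the mutant libraries without passing (adjusted p = 0.0883). sox2 overlapped at 96.6 and 127 CPM in the wild-type and 118.4 and 138 CPM in the mutant libraries (adjusted p = 0.599). The gene higher in wild-type was olig4, which is described with the largest differences. foxb1a did not pass without any 1 of the 4 libraries (adjusted p = 0.0533 to 0.263). her5 did not pass without wild-type replicate 1, mutant replicate 1 and mutant replicate 2, each in turn (adjusted p = 0.107 to 0.187).

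Nodal ligands, which induce mesendoderm, use a coreceptor encoded by tdgf1. Of 10 genes of this pathway tdgf1 was lower in wild-type and none was higher (median -0.17). It was at 249 and 294 CPM in the wild-type and 607 and 595 CPM in the mutant libraries (log2 fold change -1.15, SE 0.23, adjusted p = 0.0359). foxh1, which encodes a partner of Smad2 and is in the study's list of genes raised by BMP, was at 239.9 and 248 CPM in the wild-type and 134 and 84.0 CPM in the mutant libraries and did not pass (adjusted p = 0.0666). None of 9 genes of endoderm and mesendoderm was called, and sox17, the endoderm marker, was at 20.8 and 20.3 CPM in the wild-type and 23.3 and 24.6 CPM in the mutant libraries (adjusted p = 0.756). The call of tdgf1 was lost without any 1 of the 4 libraries (adjusted p = 0.0893 to 0.19).

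**Figure D3:**
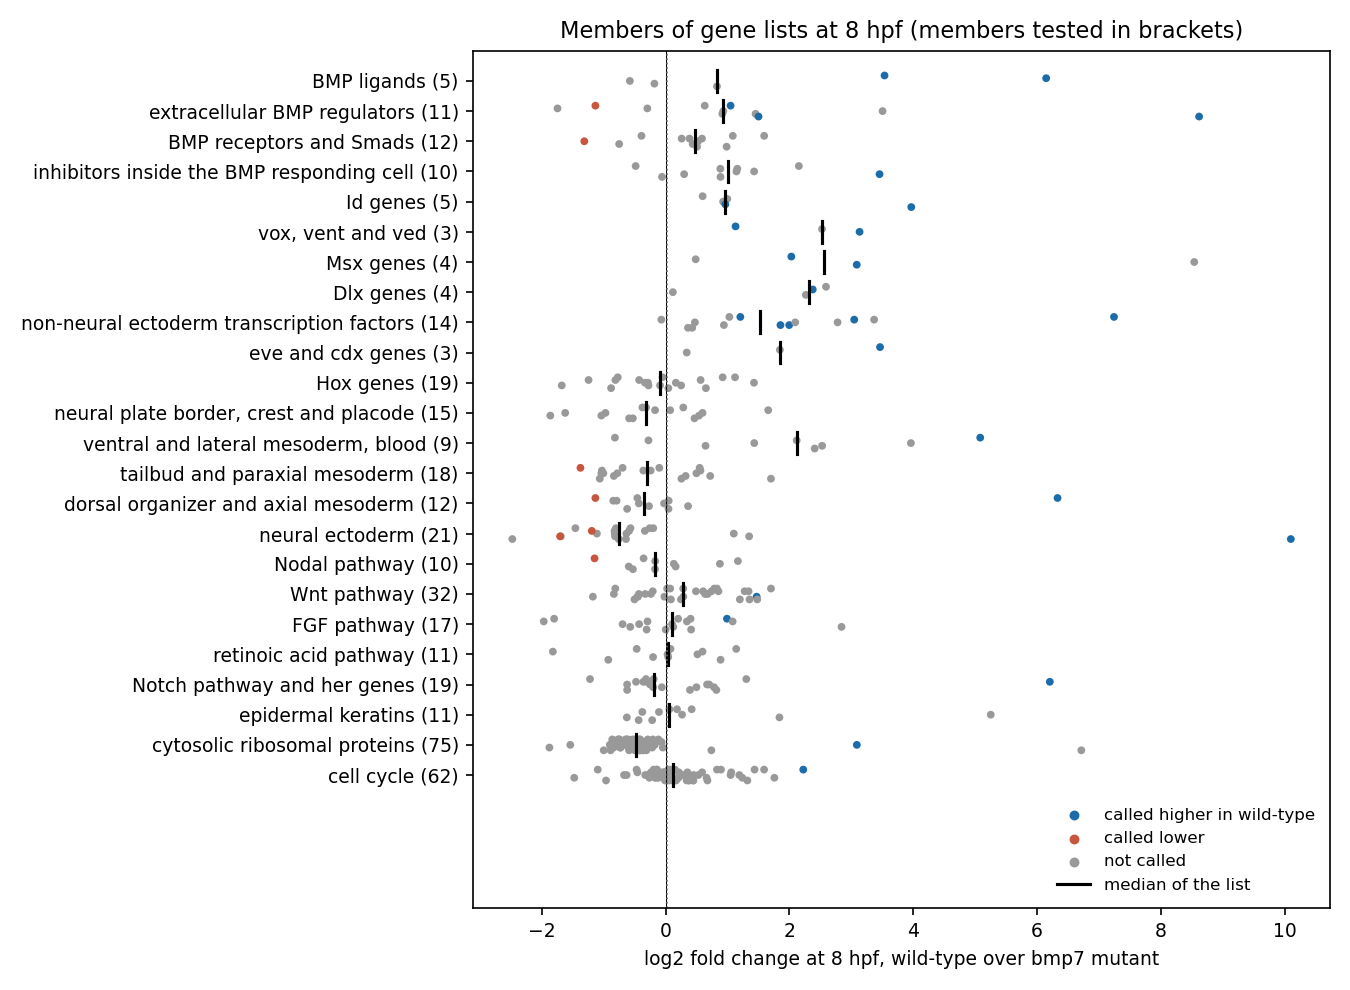
Log2 fold changes at 8 hpf of wild-type over bmp7 mutant for each member tested of 24 gene lists, with called members in colour, a black bar at the median of each list, and a dotted line at the median of all genes, 0.02. Medians of the Msx genes, the Dlx genes, the ventral and lateral mesoderm list and of vox, vent and ved lie above 2. Those of the neural ectoderm, ribosomal protein, organizer, border, tailbud, Notch, Nodal and Hox lists lie below 0. Single members such as olig4 and shha sit far from the rest of their list.

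fzd4, which encodes a Frizzled receptor, was the called member of the 32 genes tested of a Wnt pathway list. It was at 34.0 and 28.6 CPM in the wild-type and 10.5 and 11.9 CPM in the mutant libraries (log2 fold change 1.47, SE 0.32, adjusted p = 0.0462). The list does not hold every Wnt gene. wif1, a Wnt inhibitor gene outside it, was called lower in wild-type and is described with the CHX libraries. lef1, a transcription factor gene of that pathway, was at 81.5 and 92.1 CPM in the wild-type and 46.4 and 51.1 CPM in the mutant libraries and did not pass (adjusted p = 0.0563). fgfr1a, which encodes an FGF receptor, was the called member of 17 FGF pathway genes, at 54.4 and 50.2 CPM in the wild-type and 23.3 and 29.0 CPM in the mutant libraries (log2 fold change 0.99, SE 0.22, adjusted p = 0.0495). Beside these single members, 3.15% of all genes tested were called in either direction. dusp6, a feedback inhibitor gene of FGF signaling, was at 31.7 and 90.6 CPM in the wild-type and 4.08 and 11.98 CPM in the mutant libraries (adjusted p = 0.0622). Both its wild-type libraries lay above its mutant libraries, but the replicates of each genotype differed by over 2-fold. None of 11 retinoic acid pathway genes was called, and cyp26a1, which encodes the enzyme that breaks retinoic acid down, was at 400.0 and 709 CPM in the wild-type and 767 and 764 CPM in the mutant libraries (adjusted p = 0.466).

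Among 19 genes of the Notch pathway and of Hairy-type repressors, her13 was higher in wild-type, at 3.60 and 3.44 CPM in the wild-type and 0 and 0.0516 CPM in the mutant libraries, with 1 count in the mutants and a ratio of counts of 86.3 (95% counting interval 15.2 to 3436). The receptor gene notch1a was at 205 and 169 CPM in the wild-type and 104 and 107.4 CPM in the mutant libraries and did not pass (adjusted p = 0.0563). Without any 1 of the 4 libraries, the calls of fzd4, fgfr1a and her13 were lost (adjusted p = 0.0506 to 0.298). The call of fgfr1a was also lost with RLE factors in place of TMM.

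pcdh18b, a protocadherin gene, was lower in wild-type, at 3.25 and 3.50 CPM in the wild-type and 14.9 and 14.1 CPM in the mutant libraries (log2 fold change -2.102, SE 0.29, adjusted p = 0.00811), and was the called member of 36 cadherins and protocadherins. itgb1b, which encodes an integrin beta subunit, was at 143 and 83.1 CPM in the wild-type and 21.7 and 20.4 CPM in the mutant libraries (log2 fold change 2.42, SE 0.46, adjusted p = 0.0288), and col15a1b, a collagen gene, was at 0.531 and 1.13 CPM in the wild-type and 3.11 and 8.62 CPM in the mutant libraries (log2 fold change -2.86, SE 0.64, adjusted p = 0.0494), both among 42 matrix and integrin genes. None of 13 genes for Eph receptors and ephrins and none of 11 keratin genes was called. Over all genes tested, 3.15% were called in either direction. krt4, an abundant keratin of the enveloping layer, overlapped at 4524 and 5505 CPM in the wild-type and 6291 and 5356 CPM in the mutant libraries (adjusted p = 0.492). col15a1b did not pass without any 1 of the 4 libraries (adjusted p = 0.087 to 0.321). pcdh18b and itgb1b did not pass without wild-type replicate 1, mutant replicate 1 and mutant replicate 2, each in turn (adjusted p = 0.0526 to 0.204).

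Of the genes for basic cell functions, 75 cytosolic ribosomal protein genes had a median of -0.48. In 58 of them both mutant libraries were on top, where 27.5% of all genes have this order, but none passed in that direction. rpl4, for example, was at 1455 and 1715 CPM in the wild-type and 2385 and 2381 CPM in the mutant libraries (adjusted p = 0.168). rpl21 alone was called, higher in wild-type, with 5.43 and 5.04 CPM in the wild-type and 0.582 and 0.620 CPM in the mutant libraries. rps15 also ran against the median, with a log2 fold change of 6.72, without passing (adjusted p = 0.0665). Of 62 cell cycle genes, mcm6l, which encodes a replicative helicase subunit, was higher in wild-type, at 3.37 and 4.56 CPM in the wild-type and 0.971 and 0.775 CPM in the mutant libraries. Of 53 heat shock and chaperone genes, hsp90b1, which encodes an endoplasmic reticulum chaperone, was higher, at 123.5 and 88.2 CPM in the wild-type and 52.8 and 50.8 CPM in the mutant libraries. The share called in either direction over all genes tested was 3.15%. Of 11 major histocompatibility genes mhc1ula was higher, with 141 counts over both wild-type and 0 over both mutant libraries (at least 34.1-fold higher in wild-type against 3 counts over the group). The call of mhc1ula was lost without any 1 of the 4 libraries (adjusted p = 0.0515 to 0.178). The call of mcm6l was lost without wild-type replicate 2, mutant replicate 1 and mutant replicate 2, each in turn (adjusted p = 0.0788 to 0.234). The call of hsp90b1 was lost without wild-type replicate 1, mutant replicate 1 and mutant replicate 2, each in turn (adjusted p = 0.142 to 0.227). The call of rpl21 was lost without mutant replicate 1 and mutant replicate 2, each in turn (adjusted p = 0.0986 to 0.148).

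Large differences also fell on genes outside the lists of the BMP pathway. Of the 203 genes higher in wild-type, 57 had a fitted fold of at least 16, and 46 of these were called higher at 6 hpf also. So were 168 of all 203, and 9.09% of all genes tested. A call at 6 hpf thus did not set these 57 genes apart from the rest of the 203. The 57 genes had a median of 4.52 CPM in wild-type and 0.0516 CPM in mutants. actb1, which encodes beta actin, had the smallest adjusted p of all genes, at 327 and 345 CPM in the wild-type and 2.14 and 3.67 CPM in the mutant libraries (log2 fold change 6.74, SE 0.26, adjusted p = 7.85e-06). gdi2, which encodes a regulator of Rab GTPases, was at 87.0 and 120.1 CPM in the wild-type and 0.388 and 0.516 CPM in the mutant libraries (log2 fold change 7.72, SE 0.33, adjusted p = 1.07e-05). In both, the genotypes lay far further apart than the replicates. actb1 has a close copy, actb2, so its reads are uncertain, and actb2 was at 3914 and 4939 CPM in the wild-type and 7013 and 6121 CPM in the mutant libraries (adjusted p = 0.106).

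olig4, a bHLH gene, had 295 counts over both wild-type and 0 over both mutant libraries, and was at least 71.3-fold higher in wild-type against 3 counts over the group. prkcba, which encodes a protein kinase C, had 66 counts over both wild-type and 0 over both mutant libraries (at least 15.9-fold higher). chtf18, which encodes a subunit of a clamp loader for replication, had 657 counts over both wild-type and 2 over both mutant libraries, a ratio of 238 (95% counting interval 65.7 to 1971). znf1162, a zinc finger gene, had 345 counts over both wild-type and 1 over both mutant libraries, a ratio of 250.1 (95% counting interval 44.6 to 9908). ncor1, which encodes a nuclear receptor corepressor, was at 16.9 and 42.4 CPM in the wild-type and 0.388 and 0.361 CPM in the mutant libraries (log2 fold change 6.30, SE 0.66, adjusted p = 0.00176). Of the 15 genes with the largest fold higher in wild-type, all 15 were called higher at 6 hpf also, beside 168 of all 203. These 15 had to reach a mean level taken over the untreated libraries of both stages. Their count at 6 hpf is thus partly fixed by that choice, and nothing is drawn from it. Without wild-type replicate 1, mutant replicate 1 and mutant replicate 2, each in turn, the call of prkcba was lost (adjusted p = 0.0563 to 0.178). Without mutant replicate 2, the calls of olig4 and ncor1 were lost (adjusted p = 0.0551). The calls of actb1, gdi2, chtf18 and znf1162 held with each of the 4 libraries left out.

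These genes can be followed in the CHX libraries, which also come from bmp7 mutants but from an earlier time, with levels scaled there by total counts alone. olig4 and prkcba had 0 counts in all 6 CHX libraries. gdi2 was at a mean of 0.675 CPM with CHX and 0.917 CPM with CHX and BMP2/7 protein, and actb1 at 9.85 and 13.5 CPM. Of the 15 genes, 12 had a mean over the 6 CHX libraries under 10% of their mean in wild-type at 8 hpf. The exceptions were szl, foxi1 and bmp7a. bmp7a was at a mean of 26.8 CPM in these mutant libraries, against 0.595 CPM in mutants at 8 hpf. Stage and treatment differ along with this level and cannot be told apart. Among all 57 genes with a fold of at least 16, 33 had a level under CHX below 10% of that in wild-type, and among the 146 with a smaller fold 14 did. The share of all genes tested with so low a level was not counted, so these counts have no baseline. Stage and treatment differ for all of these genes as well.

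Large gene families held some of these genes. Of 25 cytochrome P450 family 2 genes, which encode oxidizing enzymes, cyp2aa1, cyp2aa7 and cyp2aa8 were higher in wild-type and cyp2x7 was lower (median 0.06). cyp2aa7 was at 25.7 and 44.7 CPM in the wild-type and 0.388 and 0.671 CPM in the mutant libraries, and cyp2aa8 at 72.7 and 45.5 CPM in the wild-type and 1.16 and 5.58 CPM in the mutant libraries. cyp2x7 was at 8.91 and 12.7 CPM in the wild-type and 34.2 and 27.3 CPM in the mutant libraries. Of 81 znf genes, which encode zinc finger proteins, znf1147, znf1156 and znf1162 were higher and znf76 and znf692 lower (median 0.21). znf1156 was at 52.5 and 51.6 CPM in the wild-type and 0 and 0.723 CPM in the mutant libraries, while znf692 was at 0.236 and 0.119 CPM in the wild-type and 1.94 and 2.12 CPM in the mutant libraries. Members of such families share sequence, so reads may have been split between them. cyp2aa1, cyp2x7, znf76 and znf692 did not pass without any 1 of the 4 libraries (adjusted p = 0.0541 to 0.25). cyp2aa7 did not pass without mutant replicate 1 and mutant replicate 2, each in turn (adjusted p = 0.0527 to 0.0669). cyp2aa8, znf1147 and znf1156 passed with each of the 4 libraries left out. With all 14 libraries in the fit, cyp2aa8 did not pass (adjusted p = 0.059).

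**Figure D4:**
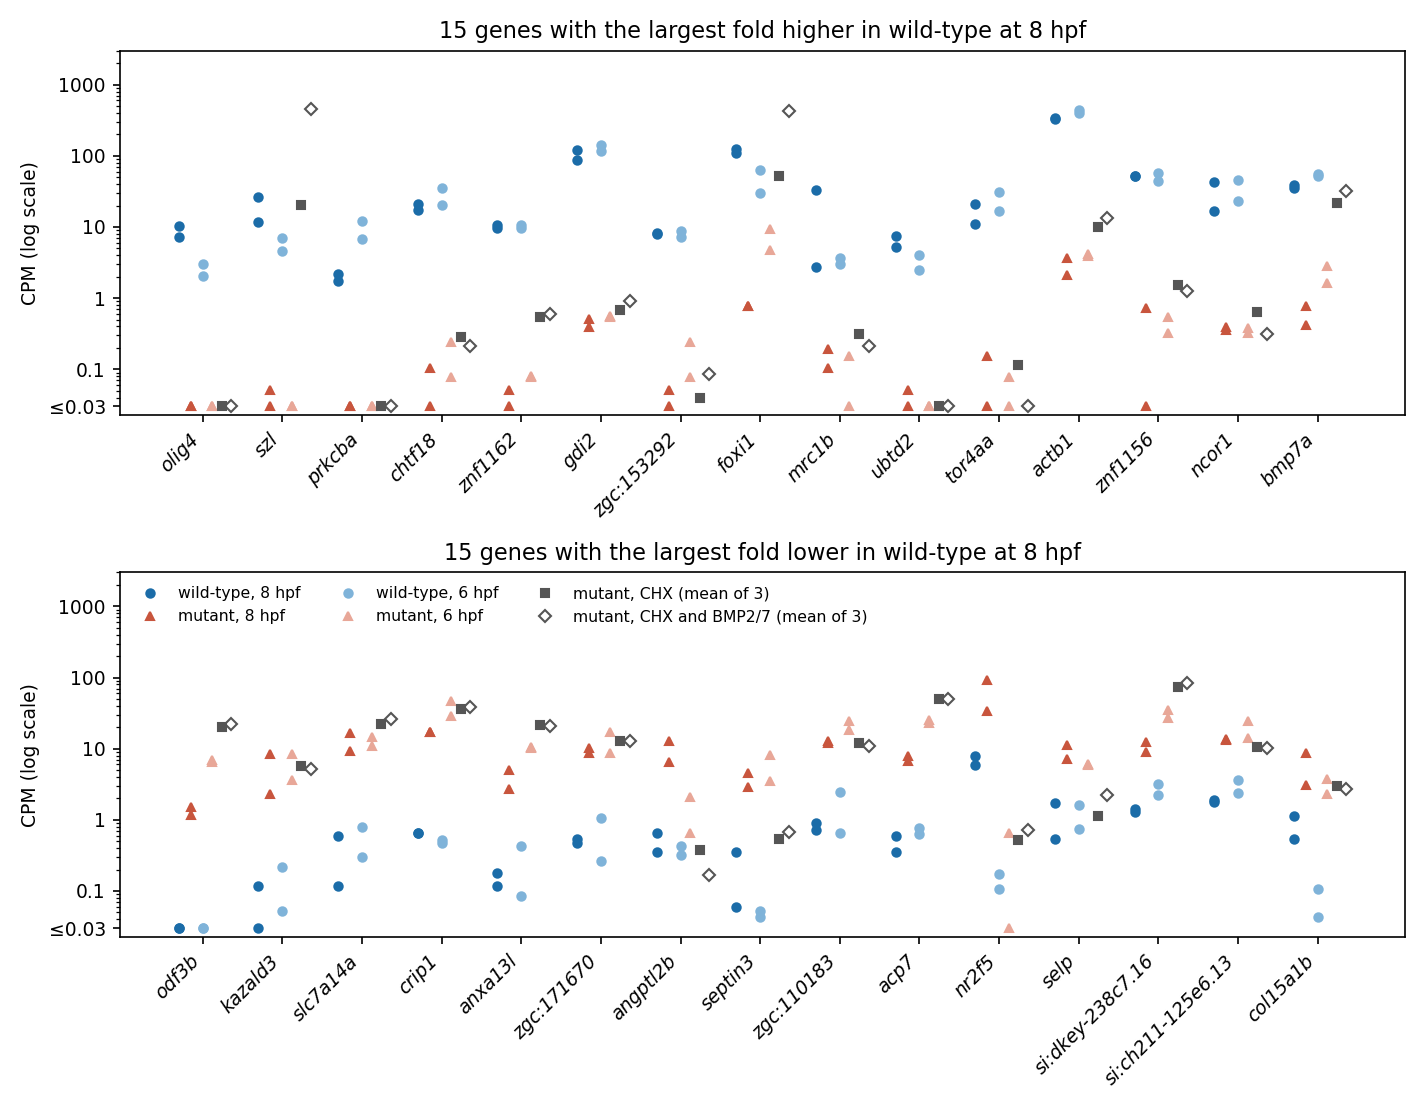
Levels (CPM, log scale, with 0 drawn at the lowest mark) of the 15 genes with the largest fold higher (top) and lower (bottom) in wild-type at 8 hpf, with 1 point for each untreated library at 8 hpf and 6 hpf and squares and diamonds for the means of 3 CHX libraries without and with BMP2/7 protein. Of the upper genes, szl, foxi1 and bmp7a have CHX means between 20.1 and 449 CPM and the other 12 lie under 10% of their wild-type level. Among the lower genes nr2f5 lies under 1 CPM at 6 hpf and under CHX.

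Genes lower in wild-type were also partly shared with 6 hpf. Of 37 with at least a 4-fold difference, 28 were called lower at 6 hpf. So were 57 of the 76 with a smaller difference, and 6.34% of all genes tested. Median levels of the 37 genes were 0.769 CPM in wild-type, 7.199 CPM in mutants and 6.73 CPM over the 6 CHX libraries. crip1, which encodes a small LIM protein, was at 0.649 and 0.652 CPM in the wild-type and 17.3 and 17.2 CPM in the mutant libraries (log2 fold change -4.71, SE 0.37, adjusted p = 0.000408). odf3b, which encodes an outer dense fiber protein, had 0 counts over both wild-type and 35 over both mutant libraries, and was at least 16.1-fold higher in mutants against 3 counts over the group. slc7a14a, which encodes an amino acid transporter of the SLC7 family, was at 0.590 and 0.119 CPM in the wild-type and 9.32 and 16.5 CPM in the mutant libraries (log2 fold change -5.18, SE 0.69, adjusted p = 0.00629).

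nr2f5, which encodes an orphan nuclear receptor of the COUP-TF family, was not called at 6 hpf. It was at 7.79 and 5.87 CPM in the wild-type and 33.8 and 91.7 CPM in the mutant libraries at 8 hpf (log2 fold change -3.21, SE 0.64, adjusted p = 0.0335), while at 6 hpf it stood at 0.106 and 0.172 CPM in wild-type and 0 and 0.650 CPM in mutants. Its difference between the stages did not pass (unadjusted p = 0.191). The calls of odf3b and nr2f5 were lost without any 1 of the 4 libraries (adjusted p = 0.0519 to 0.25). The call of slc7a14a was lost without mutant replicate 2 (adjusted p = 0.0551). The call of crip1 held with each of the 4 libraries left out.

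The study drew up a list of genes raised by BMP and a list of genes lowered by it, partly from these libraries, so their direction is not independent evidence. Of the 57 genes in the first, 21 were higher at 8 hpf and none was lower in wild-type (median 1.79). Both wild-type libraries were on top in 54 of them, where 30.1% of all genes have this order. The list is sorted into clusters by predicted ventral extent. In cluster 1, the narrowest, 3 of 5 were higher (median 3.68), in cluster 2, 3 of 6 (median 1.71), and in cluster 3, the broadest of these, 11 of 19 (median 2.15). In cluster 4, with uniform or partly dorsal expression, 3 of 20 were (median 1.35), and 1 of 7 among those without a cluster (median 1.77).

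Members of that list outside the families above add detail. tle3a, which encodes a Groucho-type corepressor, was at 28.04 and 32.1 CPM in the wild-type and 6.21 and 5.42 CPM in the mutant libraries (log2 fold change 2.38, SE 0.28, adjusted p = 0.00315). fam212ab, at 55.8 and 76.8 CPM in the wild-type and 35.7 and 26.3 CPM in the mutant libraries, differed by 2.15-fold (log2 fold change 1.11, SE 0.23, adjusted p = 0.0401). smtnl1, a smoothelin-like gene, had 51 counts over both wild-type and 0 over both mutant libraries (at least 12.3-fold higher against 3 counts over the group). neu4, which encodes a sialidase, had 32 counts over both wild-type and 0 over both mutant libraries (at least 7.73-fold higher). ppp1r14c, which encodes an inhibitor subunit of protein phosphatase, was at 24.4 and 23.6 CPM in the wild-type and 4.47 and 8.93 CPM in the mutant libraries without passing (adjusted p = 0.0602). Genes whose genotypes overlapped were zfp36l1b, cbx7a and tdrd7b. Without any 1 of the 4 libraries, the calls of fam212ab, smtnl1 and neu4 were lost (adjusted p = 0.0543 to 0.279). Without mutant replicate 2, the call of tle3a was lost (adjusted p = 0.0698).

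Of the 14 genes in the second list, 4 were lower in wild-type at 8 hpf and none was higher (median -1.17). Both mutant libraries were on top in 12 of them, where 27.5% of all genes have this order. sparc, which encodes a matrix glycoprotein, was at 5.90 and 6.04 CPM in the wild-type and 23.1 and 33.0 CPM in the mutant libraries (log2 fold change -2.24, SE 0.40, adjusted p = 0.0241). def6a was at 6.91 and 3.08 CPM in the wild-type and 23.1 and 18.1 CPM in the mutant libraries (log2 fold change -2.04, SE 0.42, adjusted p = 0.0379). chrd and si:ch211-133n4.4 were the others. sparc and si:ch211-133n4.4 did not pass without any 1 of the 4 libraries (adjusted p = 0.087 to 0.249). def6a did not pass without wild-type replicate 2, mutant replicate 1 and mutant replicate 2, each in turn (adjusted p = 0.106 to 0.207).

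BMP2/7 protein given to bmp7 mutants after CHX from 4 hpf is a readout from other libraries, since no library is shared with the 8 hpf comparison. CHX was used at 10 µg/ml and 10 pg of protein was injected, RNA was taken 90 minutes later from 50 embryos per library, and 3 libraries with protein were compared with 3 without. The sources used here do not say whether libraries without protein were injected, so protein and injection cannot be told apart. In this fit 1.91% of 9444 genes were raised and 0.349% lowered. Of the 203 genes higher in wild-type at 8 hpf, 161 were tested under CHX, of which 18 were raised (11.2%), 1 was lowered and 142 were not called. Read the other way, 144 of the 180 genes raised under CHX were tested at 8 hpf, and these 18 are 12.5% of them.

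The 18 genes were bambia, bmp4, dlx3b, eve1, fam212ab, foxi1, fzd4, gata2a, id3, id4, klf2b, msx3, szl, tbx3a, tfap2c, tle3a, ved and vox. All 18 are in the study's list of genes raised by BMP, which was chosen partly for this overlap. Their log2 fold changes ranged from 0.97 to 8.62 at 8 hpf (median 3.07) and from 0.82 to 9.97 under CHX. tbx3a had the largest of them under CHX (9.97, SE 0.29, adjusted p = 6.12e-06) and 3.68 at 8 hpf. foxi1 had 3.02 under CHX and 7.25 at 8 hpf.

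tfap2a was higher in wild-type at 8 hpf, but had a log2 fold change of 0.23 under CHX (adjusted p = 0.64). twsg1b and bmp1a were not called under CHX either (log2 fold changes 0.82 and 0.11, adjusted p = 0.258 and 0.955). osr1, a zinc finger gene of the kidney field chosen here after its values were seen, was higher in wild-type at 8 hpf (log2 fold change 1.51, SE 0.32, adjusted p = 0.043) and lowered under CHX (-1.35, adjusted p = 0.0438). msx1a, olig4 and shha were among the 42 genes higher at 8 hpf with too few reads for a test under CHX.

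Other genes, cdx1a, smad6a and smad6b, were raised under CHX (log2 fold changes 6.69, 3.64 and 5.94) without passing at 8 hpf (adjusted p = 0.0665, 0.0597 and 0.185). For cdx1a and smad6a both wild-type libraries at 8 hpf still lay above both mutant libraries, so missing the threshold does not show that these genes did not differ. hoxc9a was raised by 7.89 on the log2 scale under CHX, while at 8 hpf it overlapped between genotypes, at 7.56 and 2.19 CPM in the wild-type and 3.88 and 7.64 CPM in the mutant libraries. Over all 144 genes the median log2 fold change at 8 hpf was 0.48.

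Of the genes lower in wild-type, 102 were tested under CHX, 1 of them, def6a, was lowered (0.98%) and 1 was raised. The gene raised was wif1, which encodes a secreted Wnt inhibitor and was chosen here after its values were seen. It was at 1.71 and 1.84 CPM in the wild-type and 6.41 and 7.90 CPM in the mutant libraries at 8 hpf (log2 fold change -2.02, SE 0.45, adjusted p = 0.0494) and had a log2 fold change of 2.86 under CHX (adjusted p = 0.0121). The overlap depended on libraries and fit. Without mutant 8 hpf replicate 2 it was 7 genes for those higher, without mutant 8 hpf replicate 1 it was 11, and without CHX replicate 1 it was 10. For those lower it was 7 with the replicate number as a block in the CHX fit, and between 0 and 2 with 1 library left out. The call of wif1 was lost without any 1 of the 4 libraries (adjusted p = 0.122 to 0.263). The calls of osr1 and def6a were lost without wild-type replicate 2, mutant replicate 1 and mutant replicate 2, each in turn (adjusted p = 0.106 to 0.257).

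**Figure D5:**
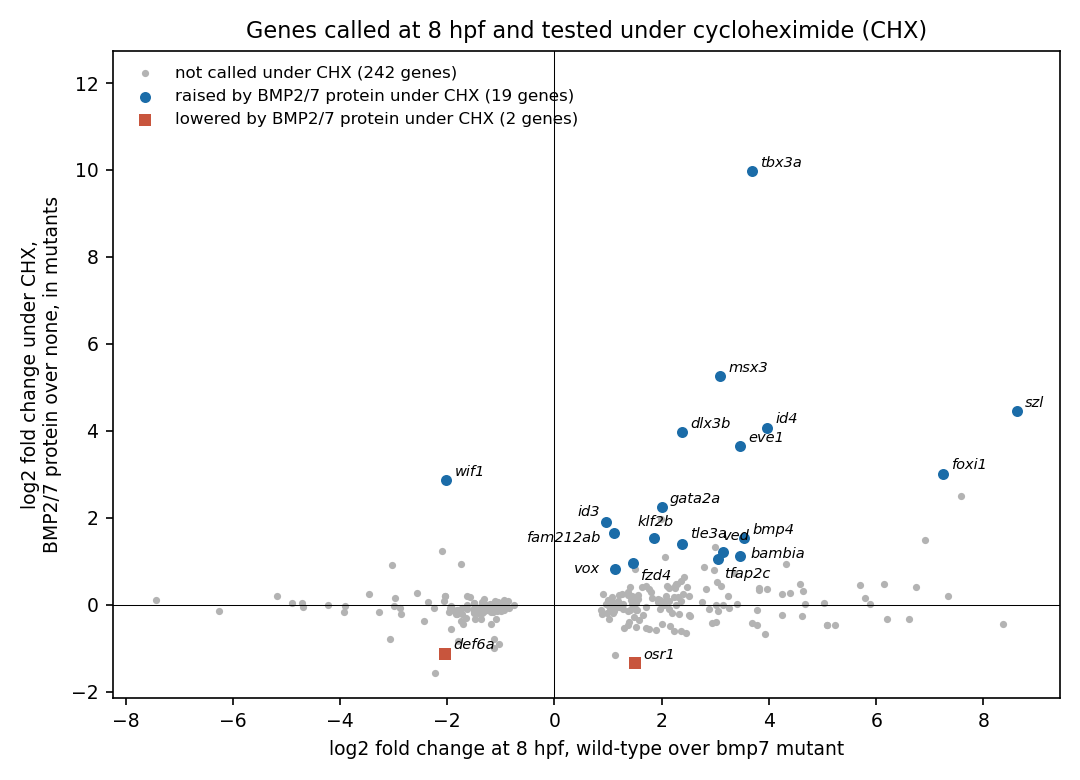
Each point is a gene called at 8 hpf and tested under CHX, with its log2 fold change at 8 hpf of wild-type over bmp7 mutant on the horizontal and that of BMP2/7 protein over none in CHX-treated mutants on the vertical axis. Genes called under CHX are named, with 18 of the 19 raised genes to the right of 0 and wif1 to the left, and most of the 242 genes not called under CHX lie near 0 on that axis.

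Against 6 hpf, 168 of the 203 genes higher at 8 hpf were called higher there also and 85 of those lower were called lower, where 9.09% and 6.34% of all genes tested are. No gene was called in opposite directions. Both stages were fitted together, so they share an estimate of the spread. Those not called at 6 hpf included id3 (log2 fold change -0.50 at 6 hpf and 0.97 at 8 hpf), vox (-0.28 and 1.13), tfap2a (-0.14 and 1.21), klf2b (0.58 and 1.86) and chrd (-0.33 and -1.13).

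A test of the difference itself called 0 genes with the edgeR quasi-likelihood test, with 555 at an unadjusted p under 0.05, and 20 with DESeq2 and 21 with the edgeR likelihood ratio test. Without wild-type 8 hpf replicate 1 it called 6. The 9 genes with the smallest p had the larger difference at 8 hpf. foxi1 was at 29.6 and 62.2 CPM in wild-type and 9.47 and 4.79 CPM in mutants at 6 hpf, and its log2 fold change was 4.56 larger at 8 hpf (unadjusted p = 6.17e-05, adjusted p = 0.329). bambia was at 185 and 189 CPM and 91.6 and 59.5 CPM at 6 hpf, a difference of 2.15 (unadjusted p = 6.24e-05, adjusted p = 0.329). eve1, ved, id3, vox, tfap2a, postnb and tfap2c followed, with adjusted p from 0.334 to 0.513. Of the 57 genes of the study's list raised by BMP, 19 had an unadjusted p under 0.05, 17 of them with the larger difference at 8 hpf, beside 555 and 269 among all 10029 genes. The list was chosen partly for a genotype difference in these same libraries, so these counts are a description and not independent evidence.

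Markers of other cells were compared between the libraries by their summed CPM, and these sums are scaled by total counts alone. For the enveloping layer, 8 of 10 markers were tested and none was called, with sums of 8105 and 9869 CPM in wild-type and 10333 and 9093 CPM in mutants. For the yolk syncytial layer none of 5 tested was called, with sums of 1776 and 1698 CPM in wild-type and 1144 and 1293 CPM in mutants. Of 7 germ plasm markers 1 was called, ca15b, which was higher in wild-type, at 16.4 and 19.9 CPM in the wild-type and 4.47 and 4.75 CPM in the mutant libraries, and of 7 maternal oocyte markers none. All 5 ventral gastrula markers were higher in wild-type, with sums of 704 and 685 CPM against 55.0 and 52.1 CPM. All 5 are in the study's list of genes raised by BMP. That list was drawn up partly from these libraries, so their direction is not independent evidence. For the dorsal gastrula, 3 markers were in the table, with sums of 689 and 861 CPM against 1532 and 1346 CPM. Of these, chrd was the called one and made up most of each sum, while noto overlapped between genotypes. No marker of these lists was at 0 in all 4 libraries. The part of yolk syncytial or enveloping layer RNA in the results above was not tested. ca15b did not pass without mutant replicate 1 and mutant replicate 2, each in turn (adjusted p = 0.0988 to 0.114).

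Genes near bmp7a were counted apart. Among the 50 tested genes nearest to bmp7a on chromosome 11, by gene order in the RefSeq annotation of GRCz12tu, 3 were called (6%). On the rest of the chromosome 6 of 281 were called (2.14%), and over all genes tested 3.15%. The 3 genes near bmp7a were dda1, which encodes a ubiquitin ligase component, at 19.6 and 23.5 CPM in the wild-type and 1.94 and 2.995 CPM in the mutant libraries, ranbp3a, a Ran-binding protein gene, at 10.04 and 4.98 CPM in the wild-type and 1.55 and 1.60 CPM in the mutant libraries, and chrna4b, an acetylcholine receptor gene, at 0.354 and 0.178 CPM in the wild-type and 2.33 and 2.27 CPM in the mutant libraries. dda1 and ranbp3a lay on one side of bmp7a and chrna4b on the other. rps15, next to dda1, had a log2 fold change of 6.72 without passing (adjusted p = 0.0665). Between chromosomes the share of genes called ranged from 1.35% on chromosome 16 to 5.85% on chromosome 15. Without any 1 of the 4 libraries, the call of chrna4b was lost (adjusted p = 0.118 to 0.227). Without wild-type replicate 1, mutant replicate 1 and mutant replicate 2, each in turn, the call of ranbp3a was lost (adjusted p = 0.144 to 0.244). Without mutant replicate 1 and mutant replicate 2, each in turn, the call of dda1 was lost (adjusted p = 0.0581 to 0.0791).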

How the data were processed

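RNA of whole embryos was sequenced in 14 libraries. The authors aligned stranded polyadenylated-RNA reads to GRCz11 (danRer11) with the RNA-seq Unified Mapper and deposited raw counts for 14532 RefSeq transcripts. The sources used here give neither its version nor whether counting used strand. The table's log2 values, fold changes and p-values, made by the authors with edgeR, were not used. Its comparison headings swap the genotypes, so library headings were used, and 14 transcripts whose symbols had turned into dates were restored.

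Counts were tested in R 4.3.3 with edgeR 4.0.16 (quasi-likelihood test, TMM). Each SE was derived from that test, as the absolute log2 fold change over the square root of its F statistic. It thus adds no information beyond the fold change and the test. filterByExpr with min.count = 10 left 10555 transcripts (10029 genes). The 8 untreated libraries were fitted as 4 groups (biological coefficient of variation 0.270), and the 6 CHX libraries apart. A gene is reported by its transcript with the highest mean count. Where a genotype had 0 counts, its group was set to 3 counts and the fold given as a lower bound. Where it had 1 to 3, a ratio with its 95% interval was given, for counting error only. The scripts were tested on simulated data.

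Named are bmp7a, the 15 genes per direction with the largest fold change (average log2 CPM of at least 1, no overlap), up to 6 called members of each list, or otherwise up to 3 of its most abundant, genes of the study's lists and called genes near bmp7a. Further members are given as examples. These members and lists were chosen with earlier results of these data known. Alternatives were other tests (DESeq2 1.42.0 among them), scalings, filters, fits, thresholds and each library left out. A search of promoters for Smad motifs was not run.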

Additional observations from a re-analysis of the deposited data

How the results depend on the processing

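Instead of 203 genes higher in wild-type and 1.13% of all genes lower, the edgeR exact test called 591 and 359, the edgeR likelihood ratio test 632 and 377, and DESeq2 522 and 361. Without a filter on low counts 396 and 232 were called, with only the 4 libraries of 8 hpf 369 and 208, and with all 14 libraries 567 and 383. At an adjusted p under 0.01 48 and 12 remained past the threshold, and against a fold change of 1.5 (glmTreat) 90 and 33. With 1 library left out the counts ranged from 30 to 297 higher and from 9 to 173 lower. RLE factors (193 higher), library size alone (234 and 92), a filter of 1 CPM (197 higher) and summed transcripts (195 and 101) stayed within 1.5 times in both directions. The median of all genes was 0.02 with TMM, 0.01 with RLE factors and 0.08 with library size alone. Same-numbered libraries of both genotypes deviated with r = -0.02 at 8 hpf and 0.21 at 6 hpf, with only 2 pairs each, and the labels name nothing that a number marks, so they share only a number. With the replicate block 249 and 140 were called, 163 and 86 of them among the main calls, and 12 named genes did not pass (bmp1a, bmpr1ba, chrna4b, fam212ab, fgfr1a, foxb1a, fzd4, msx1a, ranbp3a, selp, smtnl1 and znf692, adjusted p = 0.0505 to 0.0645). With summed transcripts bmpr1ba, col15a1b, cyp2aa1 and foxb1a did not pass, and with only the 4 libraries of 8 hpf bmp1a and neu4. The difference between the stages gave 0 genes, 21 with the likelihood ratio test, 20 with DESeq2, 3 without a filter, 2 with all 14 libraries, 0 with the replicate block and 0 to 6 with 1 library left out. Genes higher at 8 hpf and raised under CHX numbered 18, or 38 with DESeq2 for both and 7 to 19 with 1 library left out. Those lower and lowered numbered 1, or 7 with the replicate block in the CHX fit, 12 with DESeq2 and 0 to 2 with 1 library left out. Of 81 named genes called, none changed direction under any of these. With 2 libraries per genotype and 5034277 counts in mutant replicate 1, genes with few reads rest on single counts there, and a p above the threshold does not show that a gene did not differ.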

Other observations

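The genes below were chosen after their values were seen, from those called at 8 hpf that are in no list. postnb, which encodes the matrix protein Periostin, was at 15.8 and 21.3 CPM in the wild-type and 0.971 and 0.826 CPM in the mutant libraries (log2 fold change 4.39, SE 0.37, adjusted p = 0.000455), and its log2 fold change was 1.95 at 6 hpf. tsta3, which encodes an enzyme of GDP-fucose synthesis, was at 129 and 160.3 CPM in the wild-type and 16.5 and 19.1 CPM in the mutant libraries (log2 fold change 3.02, SE 0.20, adjusted p = 0.000209). akap12b, which encodes a scaffold for protein kinase A, was at 1375 and 831 CPM in the wild-type and 228 and 324 CPM in the mutant libraries (log2 fold change 1.997, SE 0.32, adjusted p = 0.0161). The genotypes were apart for all 3, and all 3 were called at 6 hpf also.

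Among genes lower in wild-type, rrm2, which encodes a ribonucleotide reductase subunit, was at 199 and 214 CPM in the wild-type and 771 and 593 CPM in the mutant libraries (log2 fold change -1.72, SE 0.18, adjusted p = 0.00156). ctcf, which encodes a chromatin insulator protein, was at 77.7 and 80.4 CPM in the wild-type and 235 and 214 CPM in the mutant libraries (log2 fold change -1.51, SE 0.19, adjusted p = 0.00451), and hnrnpa0l, which encodes an RNA-binding protein, was at 384 and 515 CPM in the wild-type and 1786 and 1536 CPM in the mutant libraries (log2 fold change -1.89, SE 0.21, adjusted p = 0.00215). These were called lower at 6 hpf also, and none was called under CHX. tbr1b, a T-box gene, was at 0.945 and 0.593 CPM in the wild-type and 4.66 and 5.32 CPM in the mutant libraries (log2 fold change -2.697, SE 0.45, adjusted p = 0.0184), and was not called at 6 hpf, where its log2 fold change was -0.31. The call of tbr1b was lost without any 1 of the 4 libraries (adjusted p = 0.0566 to 0.143). The call of akap12b was lost without wild-type replicate 1, mutant replicate 1 and mutant replicate 2, each in turn (adjusted p = 0.0677 to 0.145). The call of ctcf was lost without mutant replicate 1 (adjusted p = 0.0585). The calls of postnb, tsta3, rrm2 and hnrnpa0l held with each of the 4 libraries left out. All p-values are from the edgeR quasi-likelihood test with Benjamini-Hochberg adjustment.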
